A study of Homo sapiens with 8 samples.

Results

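The contrast described here is the interaction between cell line and docetaxel resistance: the resistant minus sensitive difference in PC3, less the same difference in DU145. It used all 8 bulk RNA-seq libraries of the series, and its main members are the 1407 of 20238 tested genes that moved in opposite directions in the lines, called opposed below. DU145 and PC3 are human prostate cancer cell lines that grow without androgen, and both were bought from ATCC, with resistant strains made from them earlier. Each line was measured in a sensitive form, kept with 0.1% DMSO in its medium, and a docetaxel resistant form, kept in 10 nM docetaxel. All cells grew in RPMI 1640 with serum and antibiotics, total RNA was made into libraries with a SMART-seq mRNA kit, and each of the 4 groups had 2 libraries. Whether the 2 libraries of each kind stem from different cultures is not labelled, and p-values therefore reflect only how far these samples spread, which may be technical. The number of resistant clones behind each strain is not given, drug exposure and resistance cannot be told apart, and no batch is named in the labels.

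Docetaxel is a taxane that stabilizes microtubules and stops cells in mitosis. Carcinoma cells can hold an epithelial state, with E-cadherin, desmosomes and tight junctions joining them to their neighbours, or a mesenchymal state with vimentin filaments and looser contacts, and transcription factors such as ZEB2 on one side and OVOL2 on the other hold the switch. Wnt, BMP and receptor tyrosine kinase signals, sterol synthesis and the interferon response are among the programs that commonly differ between such states.

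The libraries held 31685148 to 43045127 counts. CTNNA1 and STAT3, which are known to be deleted in PC3, had at most 3.34 CPM (counts scaled to TMM-adjusted library size) in any PC3 library, and CTNNA1 in PC3 resistant libraries reached 0.436% of its level in DU145 sensitive libraries. The epithelial markers KRT18, KRT19 and EPCAM were found in every library, whereas the prostate luminal marker KLK3 was at 0 in all of them. Markers of leukocytes, endothelium and fibroblasts summed to 0.993 to 1.81 CPM in DU145 and to 8.37 to 29.1 CPM in PC3. In PC3 most of that sum was PECAM1, at up to 25 CPM, and its part in the results was not tested. ABCB1, the drug efflux pump, rose in both lines and so is no opposed gene. Bulk counts cannot tell fewer cells of one state from less RNA per cell.

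Resistance moved many genes in each line. In DU145, 2513 genes rose (12.4% of those tested) and 3120 fell (15.4%), and in PC3 3755 rose (18.6%) and 3441 fell (17.0%), by edgeR's quasi-likelihood test at an adjusted p of 0.05. The interaction passed for 3743 genes with the higher change in PC3 (18.5%) and for 3208 with the lower change in PC3 (15.9%). Of the 6951 interaction calls, 2793 changed in PC3 alone by that threshold, 1923 in DU145 alone, 267 in the same direction in both lines and 561 in neither line by itself. The other 1407 were opposed, which is 56.3% of the 2501 genes called in both lines.

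A total of 825 opposed genes rose in PC3 and fell in DU145 (4.08% of tested genes), and 582 fell in PC3 and rose in DU145 (2.88%). The first set moved further. Its median log2 fold change was -1.45 in DU145 and 1.47 in PC3, against 0.76 in DU145 and -0.77 in PC3 for the second set. A change of at least 4-fold in each line was found for 172 genes of the first set and 13 of the second. In 1406 of the 1407 genes the resistant and sensitive libraries did not overlap in either line. A call in both lines was required on these same libraries, so this follows largely from the choice of genes and adds no support. Protein-coding genes made up 90.1% of opposed genes and 73.2% of tested genes.

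**Figure D1:**
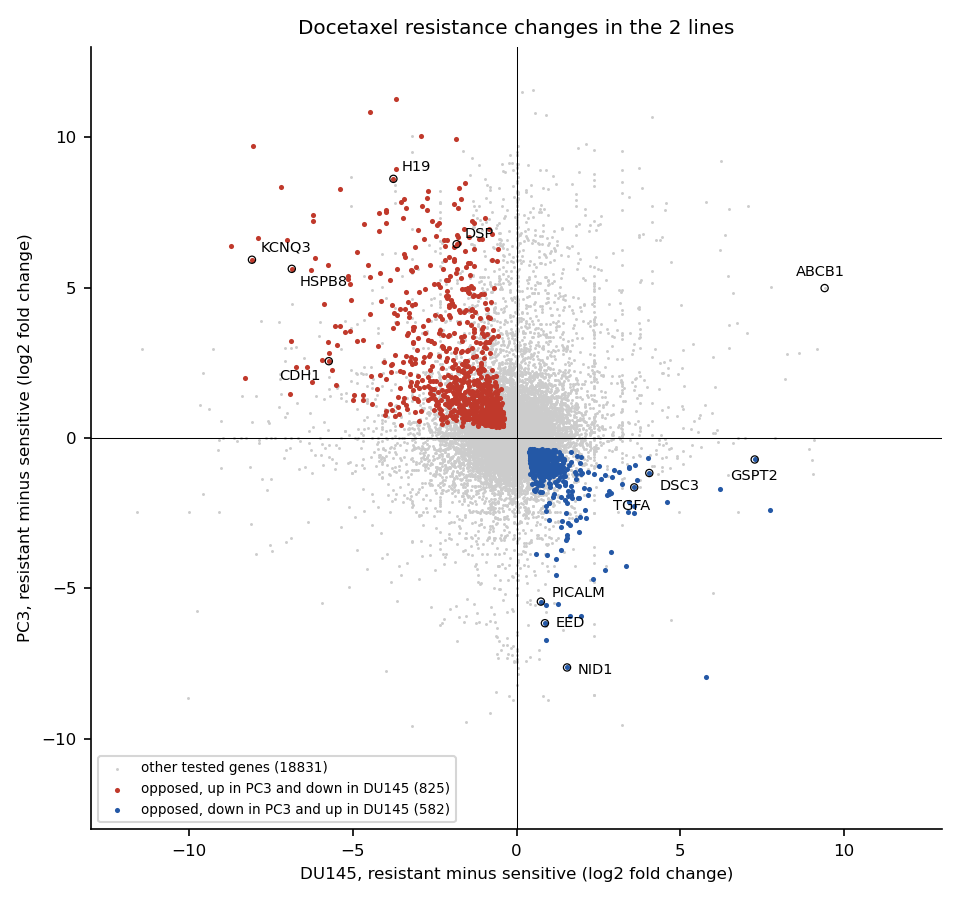
Log2 fold change between resistant and sensitive libraries in DU145 (x axis) and PC3 (y axis), with 1 point per tested gene and 2 libraries per group. The 825 red genes sit at the upper left and reach further from the centre than the 582 blue genes at the lower right, and ABCB1 lies at the upper right with a rise in both lines.

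Among the 915 opposed genes with separated libraries and at least 8 CPM in the higher group of each line, the largest interactions of genes up in PC3 were those of KCNQ3, HSPB8 and H19. KCNQ3, a potassium channel subunit on chromosome 8, had 7.99 and 9.65 CPM in the DU145 sensitive libraries, 0.0303 and 0.0278 in DU145 resistant, 0.183 and 0.0973 in PC3 sensitive, and 8.28 and 9.33 in PC3 resistant. The DU145 resistant libraries held 2 KCNQ3 counts in all, and the sensitive level was 306-fold higher with an exact 95% counting interval of 84.3 to 2530. KCNQ3 was therefore present in DU145 sensitive and PC3 resistant cells and near absent in the others. HSPB8, a small heat shock protein that works with BAG3 in clearing damaged proteins, had the same pattern, with 15.3 and 12.6 CPM in DU145 sensitive, 0.121 and 0.111 in DU145 resistant, 0.305 and 0.486 in PC3 sensitive, and 18.2 and 21.0 in PC3 resistant libraries. Its log2 fold change was -6.87 ± 0.35 (SE) in DU145 and 5.63 ± 0.30 in PC3, which gave an interaction of 12.49 ± 0.46 with an adjusted p of 1.3e-07 by edgeR's quasi-likelihood test. H19, an imprinted long noncoding RNA, rose in PC3 from 0.152 and 0.324 to 87.3 and 101 CPM and fell in DU145 from 17.6 and 5.02 to 1.06 and 0.611 CPM. The DU145 sensitive libraries of H19 lay far apart. Both lay above both resistant libraries, a separation that the choice of these 915 genes required.

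In the reverse direction, under the same limit on level, the largest interactions were those of NID1, GSPT2 and ZNF215. NID1, a basement membrane protein that links laminin to collagen IV, rose in DU145 from 38 and 29.3 to 105 and 91.0 CPM and fell in PC3 from 65.3 and 67.5 to 0.359 and 0.303 CPM, with an interaction of -9.17 ± 0.29 and an adjusted p of 7.29e-08. GSPT2, a translation release factor gene on the X chromosome, rose in DU145 from 0.0841 and 0.141 to 20.7 and 15.3 CPM and fell in PC3 from 35.4 and 33.3 to 20.9 and 21.0 CPM. Most of the GSPT2 interaction thus came from DU145, where the gene went from near absent to a level close to that of PC3 resistant cells. ZNF215, a zinc finger gene on 11p, was lowest in PC3 resistant libraries, at 0.135 and 0.0506 CPM, against 8.41 and 12.4 in PC3 sensitive, 7.51 and 5.11 in DU145 sensitive, and 12.4 and 10.9 in DU145 resistant libraries.

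Promoters of some genes with the largest interactions are shown to set their base composition beside their changes. They run from 250 bases before to 50 bases after the start of transcription from RefSeq (GRCh38.p14). Capitals mark each CG pair, the site of DNA methylation in these cells. HSPB8, H19 and RNF43 rose in PC3 and fell in DU145, and NID1, GSPT2 and ZNF215 did the reverse.
HSPB8, chr12:119178681-119178980, + strand: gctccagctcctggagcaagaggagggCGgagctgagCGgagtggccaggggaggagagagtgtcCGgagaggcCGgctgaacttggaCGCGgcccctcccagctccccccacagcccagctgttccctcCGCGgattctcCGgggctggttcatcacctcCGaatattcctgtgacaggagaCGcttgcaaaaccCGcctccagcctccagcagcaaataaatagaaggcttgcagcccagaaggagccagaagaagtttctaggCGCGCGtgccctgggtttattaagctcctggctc
H19, chr11:2001217-2001516, - strand: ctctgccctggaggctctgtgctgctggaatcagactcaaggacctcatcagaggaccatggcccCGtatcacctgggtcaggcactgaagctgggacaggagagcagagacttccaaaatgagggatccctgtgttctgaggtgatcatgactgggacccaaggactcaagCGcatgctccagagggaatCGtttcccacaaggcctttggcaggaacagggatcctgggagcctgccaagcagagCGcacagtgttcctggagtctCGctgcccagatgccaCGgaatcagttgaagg
RNF43, chr17:58417485-58417784, - strand: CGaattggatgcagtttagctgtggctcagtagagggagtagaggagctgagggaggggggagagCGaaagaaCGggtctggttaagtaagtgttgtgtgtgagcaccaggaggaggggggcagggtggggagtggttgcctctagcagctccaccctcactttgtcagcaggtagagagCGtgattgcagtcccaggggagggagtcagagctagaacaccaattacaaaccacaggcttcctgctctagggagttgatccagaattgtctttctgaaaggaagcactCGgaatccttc
NID1, chr1:236065041-236065340, - strand: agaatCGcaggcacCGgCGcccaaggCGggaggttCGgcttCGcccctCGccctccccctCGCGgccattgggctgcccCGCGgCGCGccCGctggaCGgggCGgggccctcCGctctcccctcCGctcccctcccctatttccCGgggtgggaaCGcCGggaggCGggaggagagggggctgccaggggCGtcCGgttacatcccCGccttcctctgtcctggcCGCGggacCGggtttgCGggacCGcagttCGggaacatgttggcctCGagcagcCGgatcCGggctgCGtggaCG
GSPT2, chrX:51743192-51743491, + strand: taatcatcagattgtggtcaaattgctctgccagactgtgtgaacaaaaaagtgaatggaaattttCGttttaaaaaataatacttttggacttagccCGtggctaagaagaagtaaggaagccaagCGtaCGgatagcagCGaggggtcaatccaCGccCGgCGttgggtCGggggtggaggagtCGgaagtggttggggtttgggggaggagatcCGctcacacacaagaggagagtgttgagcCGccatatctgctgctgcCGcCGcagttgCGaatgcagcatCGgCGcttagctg
ZNF215, chr11:6926176-6926475, + strand: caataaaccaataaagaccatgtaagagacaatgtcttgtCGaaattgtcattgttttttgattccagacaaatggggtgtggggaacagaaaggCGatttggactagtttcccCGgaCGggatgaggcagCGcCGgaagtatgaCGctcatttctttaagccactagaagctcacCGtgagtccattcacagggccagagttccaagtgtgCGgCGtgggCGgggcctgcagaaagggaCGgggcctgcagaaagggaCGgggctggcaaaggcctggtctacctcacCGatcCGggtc

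The promoters of HSPB8, H19 and RNF43 held 15, 6 and 5 CG pairs, with a ratio of observed to expected CG of 0.52, 0.242 and 0.25. The promoters of NID1, GSPT2 and ZNF215 held 36, 17 and 15 pairs, with ratios of 0.861, 0.907 and 0.715. These 6 promoters were chosen by rank among genes that have an entry and do not lie on chromosome 8. KCNQ3, on chromosome 8, and BMP7, which has no entry, ranked above RNF43 and were passed over. The 6 do not stand for their sets. A promoter with over 50% G and C and a ratio over 0.6 was found for 74.3% of the 13244 tested genes with an entry, for 74.1% of the 576 opposed genes up in PC3, for 62.4% of the 109 of these that changed at least 4-fold in each line, and for 83.8% of the 488 opposed genes down in PC3. Methylation was not measured in these libraries. The E-box CACCTG, a sequence that ZEB and SNAI factors can bind, was present on either strand in 21.4% of the promoters of opposed genes up in PC3, 18.4% of those down in PC3, 26.6% of those up in PC3 by at least 4-fold in each line and 19% of all. The AP-1 motif TGANTCA, on either strand, was present in 5.03%, 4.92%, 6.42% and 5.24% of the same groups.

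**Figure D2:**
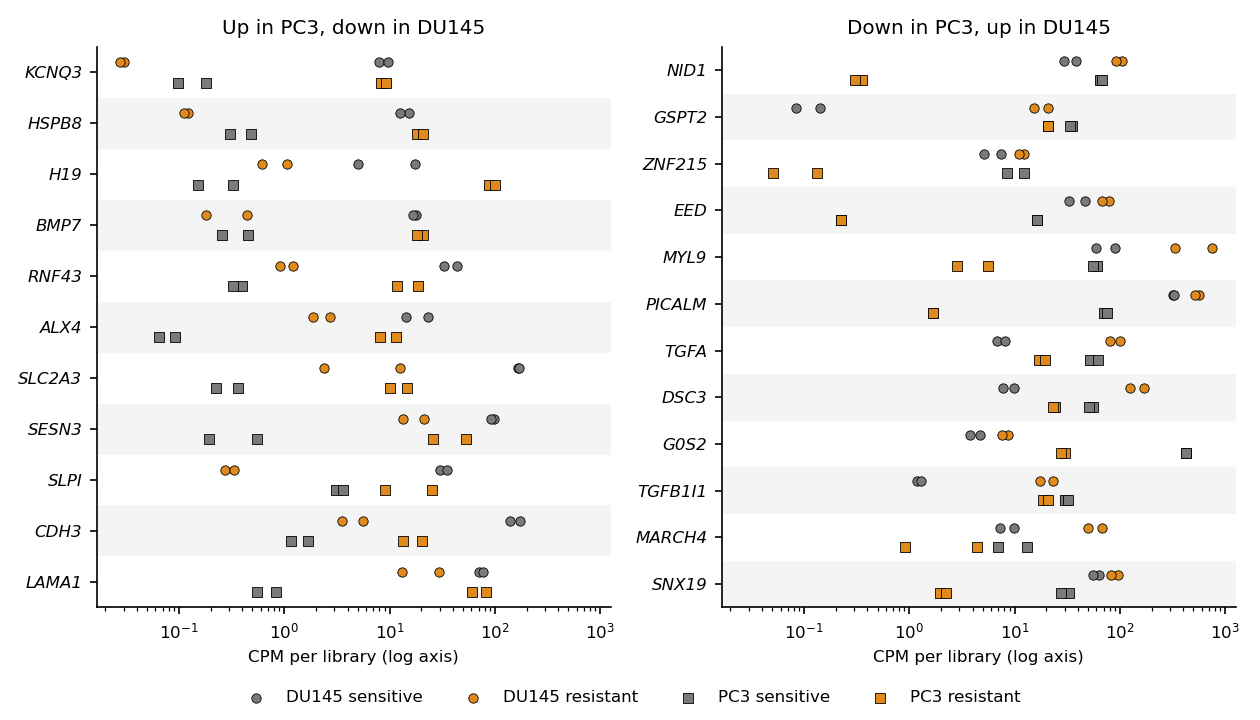
CPM per library on a log axis for opposed genes among the 12 largest interactions in each direction at 8 CPM or more in the higher group of each line, with circles for DU145, squares for PC3, grey for sensitive and orange for resistant libraries (2 each). In the left panel the orange squares and grey circles sit to the right, so that KCNQ3, HSPB8 and BMP7 have like levels in DU145 sensitive and PC3 resistant cells, and in the right panel the order is reversed within each line.

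Several genes of epithelial adhesion were opposed. CDH1, which encodes E-cadherin, the main adhesion protein of epithelial cells, had 24.2 and 20.9 CPM in DU145 sensitive, 0.364 and 0.472 in DU145 resistant, 1.07 and 0.811 in PC3 sensitive, and 6.12 and 4.95 in PC3 resistant libraries. It fell by 5.74 ± 0.31 on the log2 scale in DU145 (adjusted p = 1.05e-06, edgeR) and rose by 2.56 ± 0.27 in PC3 (adjusted p = 5.55e-05). CDH3, the P-cadherin gene that lies next to CDH1 on chromosome 16, moved with it, from 174 and 139 to 5.61 and 3.55 CPM in DU145 and from 1.68 and 1.17 to 20.4 and 13.3 CPM in PC3. These were the 2 opposed genes among 13 tested cadherins and catenins, 15.4% of the list against 6.95% of all genes. The PC3 resistant levels of CDH1 and CDH3 stayed below those of DU145 sensitive cells.

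Among genes that regulate the epithelial state, ESRP1 and OVOL2 were opposed, whereas ESRP2 and GRHL1, chosen after their values were seen, did not pass the interaction test (adjusted p of 0.529 and 0.376, edgeR). ESRP1, a splicing factor that makes epithelial isoforms, rose in PC3 from 0.731 and 0.389 to 60.1 and 50.8 CPM and fell in DU145 from 2.38 and 5.87 to 0.455 and 0.694 CPM. OVOL2, a repressor of mesenchymal genes, rose in PC3 from 0.183 and 0.227 to 4.73 and 3.31 CPM and fell in DU145 from 0.869 and 0.903 to 0 and 0.139 CPM. On the mesenchymal side, ZEB2, a repressor of CDH1, fell in PC3 from 6.25 and 7.33 to 2.62 and 1.54 CPM and rose in DU145 from 3.39 and 2.54 to 14.6 and 13 CPM. The intermediate filament gene VIM changed less, from 658 and 699 to 1240 and 1038 CPM in DU145 and from 1013 and 983 to 580 and 635 CPM in PC3. ZEB2 and VIM were the only opposed members of the 19 tested EMT factors and mesenchymal genes (10.5% against 6.95% of all genes). The median changes of that list were 0.192 in DU145 and 0.222 in PC3, so the list as a whole did not turn.

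The tight junction and polarity list, which also holds regulators of the epithelial state, had 8 opposed members of 25 tested. That is 32.0% against 6.95% of all genes. The 8 include ESRP1 and OVOL2, described above, and ELF3, which are not junction genes themselves. A total of 7 rose in PC3 and fell in DU145, and the list's median log2 fold change was -1.09 in DU145 and 0.121 in PC3, against 0 and 0.013 over all genes. CLDN7, a claudin of the junction strand, had 3.20 and 2.71 CPM in DU145 sensitive and 0.182 and 0.222 in DU145 resistant libraries, and it rose in PC3 from 1.13 and 1.23 to 4.85 and 7.96. CLDN4 was high in PC3 throughout and rose there from 68.6 and 82.6 to 247 and 359 CPM, while it fell in DU145 from 9.31 and 16.2 to 2.27 and 4.83. The scaffold gene TJP3 fell in DU145 from 11 and 11.7 to 0.788 and 0.750 CPM and rose in PC3 from 1.22 and 1.56 to 2.36 and 3.72 CPM. The exception was OCLN, the occludin gene, which rose in DU145 from 24.9 and 23.6 to 72.2 and 81.6 CPM and was lower in PC3, at 12.4 and 10.6 against 15.0 and 16.5 CPM. The PC3 change of OCLN only just passed (adjusted p = 0.0446), and it lies in a duplicated stretch of 5q13 where reads may be shared with partial copies.

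Desmosome genes split. DSP, which ties desmosomes to keratin filaments, fell in DU145 from 189 and 180 to 43.3 and 60.3 CPM and rose in PC3 from 2.38 and 1.36 to 173 and 155 CPM. DSC3, a desmosomal cadherin, did the reverse, from 9.93 and 7.81 to 171 and 124 CPM in DU145 and from 55.4 and 50.7 to 24.4 and 23.0 CPM in PC3. Both were opposed, among 10 tested desmosome genes (20% against 6.95% of all genes), so PC3 gained the one and DU145 the other. Of 11 tested keratins, 6 fell and 1 rose in DU145 and 3 rose and 2 fell in PC3. Only 1 was opposed, 9.09% of the list against 6.95% of all genes. KRT8 fell in DU145 from 2166 and 1247 to 28.2 and 29.7 CPM and stood at 189 and 130 in PC3 sensitive and 235 and 224 in PC3 resistant libraries, a PC3 change that did not pass (adjusted p = 0.12). KRT18 likewise fell in DU145 and did not pass in PC3 (adjusted p = 0.552, edgeR), and since the annotated spans of KRT8 and KRT18 overlap on opposite strands, their reads may be shared.

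Matrix and integrin genes were opposed in both directions. LAMA1, a laminin chain, rose in PC3 from 0.548 and 0.843 to 82.3 and 60.1 CPM and fell in DU145 from 70.9 and 76.9 to 29.5 and 13.2 CPM, opposite to NID1, its partner in the basement membrane. COL4A4, a collagen IV chain, fell in DU145 from 40.3 and 46.1 to 4.70 and 5.00 CPM and rose in PC3 from 0.0609 and 0.130 to 1.10 and 0.682 CPM. Basement membrane and collagen genes had 3 opposed members in each direction among 33 tested (18.2% against 6.95% of all genes). Among 16 tested integrin subunits, 4 were opposed (25% against 6.95% of all genes). ITGB8, a receptor subunit that activates latent TGF-beta, rose in PC3 and fell in DU145, where the resistant libraries held 0.152 and 0.222 CPM against 4.65 and 3.53. ITGA3, a laminin receptor subunit, moved the other way, with 524 and 646 to 1019 and 959 CPM in DU145 and 850 and 959 to 479 and 616 CPM in PC3.

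Further genes with large interactions moved either way. THBS1, which encodes thrombospondin 1, rose in DU145 from 49.4 and 53.5 to 550 and 357 CPM and fell in PC3 from 247 and 227 to 150 and 66.1 CPM. MYL9, a myosin light chain, rose in DU145 from 89.5 and 58.9 to 756 and 333 CPM and fell in PC3 from 60.7 and 55.6 to 5.61 and 2.83 CPM. TGFB1I1, a focal adhesion protein, rose in DU145 from 1.18 and 1.30 to 22.9 and 17.3 CPM, whereas its fall in PC3 was small, with 30.2 and 32.4 against 18.7 and 20.8 CPM. In TGM2, a transglutaminase that cross-links matrix proteins, the sensitive lines had like levels of 518, 492, 515 and 563 CPM, and resistance took DU145 to 42.6 and 30.3 and PC3 to 1092 and 969 CPM.

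Of 39 tested Wnt genes, 6 were up in PC3 and down in DU145 and 0 the other way, beside 4.08% and 2.88% of all genes in these directions. Over the list, 15 members fell and 4 rose in DU145, whereas 14 rose and 6 fell in PC3. The opposed members included feedback inhibitors that Wnt signalling itself induces. Other members of the list did not follow them. DKK1 had the lower change in PC3, with an interaction of -0.959 (adjusted p = 0.0192, edgeR). ZNRF3 and SP5 did not pass the interaction test (adjusted p of 0.145 and 0.3, edgeR). LEF1 had log2 fold changes above 0 in both lines, 2.49 in DU145 and 7.08 in PC3. RNF43, a ligase that removes Wnt receptors from the cell surface, fell in DU145 from 43.4 and 32.8 to 1.21 and 0.916 CPM and rose in PC3 from 0.396 and 0.324 to 11.8 and 18.5 CPM. AXIN2, a scaffold of the beta-catenin destruction complex, fell in DU145 from 13.8 and 9.28 to 0.697 and 1.36 CPM and rose in PC3 from 2.47 and 3.4 to 5.68 and 7.89 CPM. NKD1, an inhibitor that acts on Dishevelled, fell in DU145 from 8.07 and 7.50 to 2.03 and 2.25 CPM and rose in PC3 from 0.274 and 0 to 7.54 and 5.46 CPM. WNT11, a ligand, stayed low, and its rise in PC3 rested on 3 counts in the sensitive libraries against 203 in the resistant ones, a ratio of 54.9 with a counting interval of 18.5 to 268.

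Among secreted BMP and TGF-beta signals, BMP7 had the largest interaction. BMP7, a ligand that favours the epithelial state in kidney and other tissues, fell in DU145 from 17.9 and 16.7 to 0.182 and 0.444 CPM and rose in PC3 from 0.457 and 0.259 to 20.7 and 18.3 CPM. The DU145 sensitive and PC3 resistant libraries thus had like BMP7 levels. BMP7 and CHRD, both up in PC3, were the 2 opposed genes of 23 tested in the BMP and ID list, 8.7% against 6.95% of all genes. That list had 9 interaction calls with the higher change in PC3 and 4 with the lower, 56.5% against 34.3% of all genes. TGFBR2, the type II TGF-beta receptor, fell in DU145 from 226 and 195 to 84.3 and 99.8 CPM and rose in PC3 from 142 and 125 to 288 and 333 CPM. LTBP4, which stores latent TGF-beta in the matrix, moved the same way. The TGF-beta list held 10 interaction calls with the higher change in PC3 and 7 with the lower among 21 tested genes. That is 81% of the list against 34.3% of all genes. Only TGFBR2 and LTBP4 were opposed, 9.52% of the list against 6.95% of all genes.

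A list of receptor kinases, their ligands and IGF axis genes, H19 and the IGF binding proteins included, had 9 opposed genes of 35 tested. That is 25.7% against 6.95% of all genes, with 6 up in PC3 and 3 down. The interaction test was passed by 80.0% of the list against 34.3% of all genes. The ligands TGFA and FGF2 went down in PC3. TGFA, a ligand of EGFR, rose in DU145 from 6.87 and 8.10 to 101 and 79.9 CPM and fell in PC3 from 52.1 and 61.6 to 17.2 and 19.3 CPM. FGF2 rose in DU145 from 45.0 and 35.7 to 141 and 92.4 CPM and fell in PC3 from 67.2 and 78.5 to 18.6 and 13.8 CPM. The receptor FGFR3 moved the other way to FGF2, from 14.8 and 14.9 to 5.24 and 3.75 CPM in DU145 and from 0.122 and 0.0324 to 1.57 and 1.44 CPM in PC3. The IGF binding proteins split as well: IGFBP2 rose in PC3 from 0.487 and 0.259 to 48.7 and 45.3 CPM, while IGFBP3 fell there from 386 and 653 to 132 and 129 CPM and rose in DU145 from 45.8 and 25.5 to 142 and 118 CPM.

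ALX4, a homeodomain transcription factor of development, rose in PC3 from 0.0914 and 0.0649 to 11.5 and 8.11 CPM and fell in DU145 from 23.1 and 14.2 to 2.73 and 1.86 CPM. It was highest in DU145 sensitive cells. EED and BMI1 went down in PC3 and up in DU145. Both are Polycomb group genes, but no list of such genes was examined. EED, a core subunit of the PRC2 complex that methylates histone H3, fell in PC3 from 16.3 and 16.4 to 0.224 and 0.228 CPM and rose in DU145 from 47.1 and 33.0 to 79.1 and 67.0 CPM. Its neighbours on 11q, PICALM, C11orf73, ME3 and PRSS23, fell in PC3 as well, with log2 fold changes of -5.44, -5.70, -6.21 and -5.75. BMI1, a subunit of PRC1, fell in PC3 from 306 and 327 to 101 and 110 CPM and rose in DU145 from 35.7 and 27.8 to 103 and 97.0 CPM.

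The Notch and Hedgehog list held 2 opposed genes of 28, both up in PC3, and that share of 7.14% is near the 6.95% of all genes. NOTCH3, a receptor, fell in DU145 from 179 and 169 to 13.6 and 20.8 CPM and rose from 0.884 and 1.10 to 1.44 and 2.50 CPM in PC3. GLI3, a transcription factor of the Hedgehog pathway, fell in DU145 from 3.48 and 4.12 to 0.0303 and 0.194 CPM and rose in PC3 from 20.8 and 14.3 to 45.1 and 39.8 CPM.

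Sterol and fatty acid genes included opposed members in 1 direction. Of 30 tested cholesterol synthesis and uptake genes, 17 fell and 2 rose in DU145, 11 rose and 2 fell in PC3, and 7 were opposed (23.3% against 6.95% of all genes), all up in PC3. The list's median log2 fold change was -0.892 in DU145 and 0.358 in PC3. SREBF2, the transcription factor that drives this pathway, had 255 and 367 CPM in DU145 sensitive, 102 and 164 in DU145 resistant, 75.3 and 74.5 in PC3 sensitive, and 230 and 173 in PC3 resistant libraries. SCD, the stearoyl-CoA desaturase, fell in DU145 from 1658 and 2636 to 149 and 588 CPM and rose in PC3 from 271 and 175 to 757 and 456 CPM. FADS2, a fatty acid desaturase, moved the same way with less spread between libraries, from 495 and 549 to 130 and 144 CPM in DU145 and from 357 and 298 to 602 and 435 CPM in PC3. The PC3 change of SCD had an adjusted p of 0.0485 by edgeR, and its replicate libraries lay further apart than those of most named genes.

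Of 25 tested ATF4 targets and amino acid genes, 9 fell and 2 rose in DU145, and 8 rose and 2 fell in PC3. The 3 opposed genes were ATF4, SLC7A5 and VLDLR, 12% of the list against 6.95% of all genes. ATF4, the transcription factor of the integrated stress response, fell in DU145 from 348 and 398 to 234 and 263 CPM and rose in PC3 from 149 and 165 to 320 and 249 CPM. SLC7A5, a leucine transporter, fell in DU145 from 688 and 744 to 393 and 395 CPM and rose in PC3 from 195 and 206 to 442 and 268 CPM. SESN3, a sestrin that restrains mTORC1, rose in PC3 from 0.548 and 0.195 to 26.1 and 53.7 CPM and fell in DU145 from 98.3 and 92.3 to 21.2 and 13.5 CPM. SLC2A3, the neuronal type glucose transporter, fell in DU145 from 164 and 171 to 2.36 and 12.5 CPM and rose in PC3 from 0.366 and 0.227 to 10.0 and 14.6 CPM. It was the only opposed gene of 30 tested glycolysis and hypoxia genes, 3.33% against 6.95% of all genes. Of 32 tested NRF2 genes, 21 fell in DU145 and 12 fell in PC3, against 0 and 3 that rose. ME1 was the 1 opposed member, 3.12% of the list against 6.95% of all genes.

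Opposed interferon genes went in the other direction, with 0 up in PC3 and 5 down, 12.2% of the list against 6.95% of all genes. Of 41 tested, 28 fell and 1 rose in PC3, whereas DU145 had 6 up and 7 down, and the medians were -1.17 in PC3 and 0.021 in DU145. The opposition therefore held for a minority of the list. ISG15, a ubiquitin-like modifier induced by interferon, rose in DU145 from 10.7 and 9.14 to 27.9 and 27.0 CPM and fell in PC3 from 221 and 226 to 69.9 and 80.1 CPM. IFIH1, the RNA sensor MDA5, rose in DU145 from 5.72 and 5.61 to 13.6 and 16.9 CPM and fell in PC3 from 15.8 and 19.3 to 6.64 and 6.52 CPM. DDX58, the sensor RIG-I, and IFI44, an interferon-induced gene, moved in the same manner with rises of 0.77 ± 0.21 and 0.89 ± 0.23 on the log2 scale in DU145. The core of the interferon-stimulated response element, on either strand, was present in 69.7% of the 33 promoters of this list with an entry and in 2.83% of all, and in 4.92% and 1.91% of those of opposed genes down and up in PC3.

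The 3 opposed genes of 28 tested NF-kB and inflammatory cytokine genes were all down in PC3 (10.7% of the list against 6.95% of all genes), while the list as a whole had 9 up and 5 down in DU145 and 8 up and 8 down in PC3. NFKB2 and RELB, partners in the noncanonical NF-kB pathway, rose in DU145 by 0.70 ± 0.15 and 0.82 ± 0.17 on the log2 scale and fell in PC3 by 0.95 ± 0.15 and 0.95 ± 0.18. NFKB2 had 121 and 144 CPM in DU145 sensitive, 200 and 230 in DU145 resistant, 70.0 and 60.3 in PC3 sensitive, and 32.4 and 35.0 in PC3 resistant libraries. Of 32 tested proteasome genes, 12 rose and 1 fell in DU145, and 11 fell and 1 rose in PC3, with 18 interaction calls lower in PC3 and 1 higher. The medians were 0.375 and -0.426, and 4 subunits were opposed (12.5% against 6.95% of all genes). PSMC3, an ATPase subunit of the regulatory particle, rose in DU145 from 118 and 84.9 to 190 and 146 CPM and fell in PC3 from 227 and 205 to 109 and 120 CPM. PSMC6 changed in a like manner, and PSMD11 and PSMD14 passed in PC3 with adjusted p-values of 0.0443 and 0.0481, close to the threshold.

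A few genes that bear on microtubules or drug export were opposed. TUBA4A, an alpha tubulin, rose in DU145 from 26.2 and 23.6 to 58.8 and 42.9 CPM and fell in PC3 from 125 and 105 to 41.4 and 39.3 CPM. CLIP1, which binds growing microtubule ends, rose in DU145 by 0.54 ± 0.13 and fell in PC3 by 0.71 ± 0.13 on the log2 scale. MAP2, a microtubule stabilizing protein, did the reverse, from 74.4 and 119 to 38.1 and 50 CPM in DU145 and from 0.548 and 1.01 to 5.90 and 8.06 CPM in PC3. These were the 3 opposed genes of 35 tubulin and microtubule genes, 8.57% of the list and near the 6.95% of all genes. Among 24 tested ABC transporters, ABCA1, the cholesterol exporter, and ABCA3, a lipid carrier, rose in PC3 and fell in DU145, whereas ABCC4, which exports nucleotides and some drugs, rose in DU145 from 108 and 99.9 to 141 and 160 CPM and fell in PC3 from 61.7 and 63.2 to 46.7 and 42.0 CPM. ABCB1 rose in both lines, from 1.68 and 1.58 to 1218 and 1011 CPM in DU145 and from 2.19 and 3.47 to 94.8 and 84.4 CPM in PC3, and its interaction of -4.43 ± 0.31 is a difference of size and not of direction. BIK, a BH3-only promoter of apoptosis, rose in PC3 from 1.07 and 0.876 to 7.58 and 3.94 CPM and fell in DU145 from 5.13 and 2.93 to 1.58 and 1.11 CPM.

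Lists without opposed genes were found too. None of 30 mitotic spindle and checkpoint genes was opposed and 6.67% passed the interaction test, against 34.3% of all genes. DNA replication had 1 opposed gene of 34 (2.94% against 6.95% of all genes) and 14.7% interaction calls. YAP-TEAD targets and MHC class I genes had 0 opposed of 20 and 19, although 9 YAP-TEAD targets passed the interaction test with the lower change in PC3 and 2 with the higher, and 7 MHC class I genes with the higher change and 1 with the lower. In all, 86 of 784 distinct list genes were opposed, beside 1407 of 20238 tested genes. At an adjusted p under 0.01, 49 of the 76 opposed genes named in the text remained opposed, and with a 2-fold limit 47 did. Both settings lost ATF4, PSMC3, PSMC6, PSMD11 and PSMD14 among others, and the 2-fold limit also lost VIM, RELB, NFKB2 and TGM2. When each library was left out in turn, 59 to 68 of the 76 opposed genes named here remained opposed. The call was lost in every such fit for OCLN, and in at least 1 fit for ABCA1, ABCA3, ABCC4, ATF4, AXIN2, BIK, CLIP1, DDX58, EED, FADS2, GSPT2, IFI44, IGFBP2, ITGA3, ITGB8, LTBP4, MAP2, MARCH4, ME1, NOTCH3, PSMC3, PSMC6, PSMD11, PSMD14, SCD, SLC7A5, SNX19, TGFB1I1, THBS1, TJP3 and ZNF215, while the interaction itself kept its sign and passed in each.

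Secreted proteases and inhibitors held 2 opposed genes of 25, SLPI and SERPINA1, again near the share of all genes. SLPI, an inhibitor of neutrophil elastase, fell in DU145 from 30.4 and 35.5 to 0.273 and 0.333 CPM and rose in PC3 from 3.08 and 3.6 to 9.04 and 25.4 CPM. SERPINA1, the alpha-1 antitrypsin gene, rose in PC3 from 0.274 and 0.195 to 38.9 and 37.0 CPM, and its fall in DU145 rested on 37 against 3 counts, a ratio of 12 with a counting interval of 3.81 to 61.0.

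**Figure D3:**
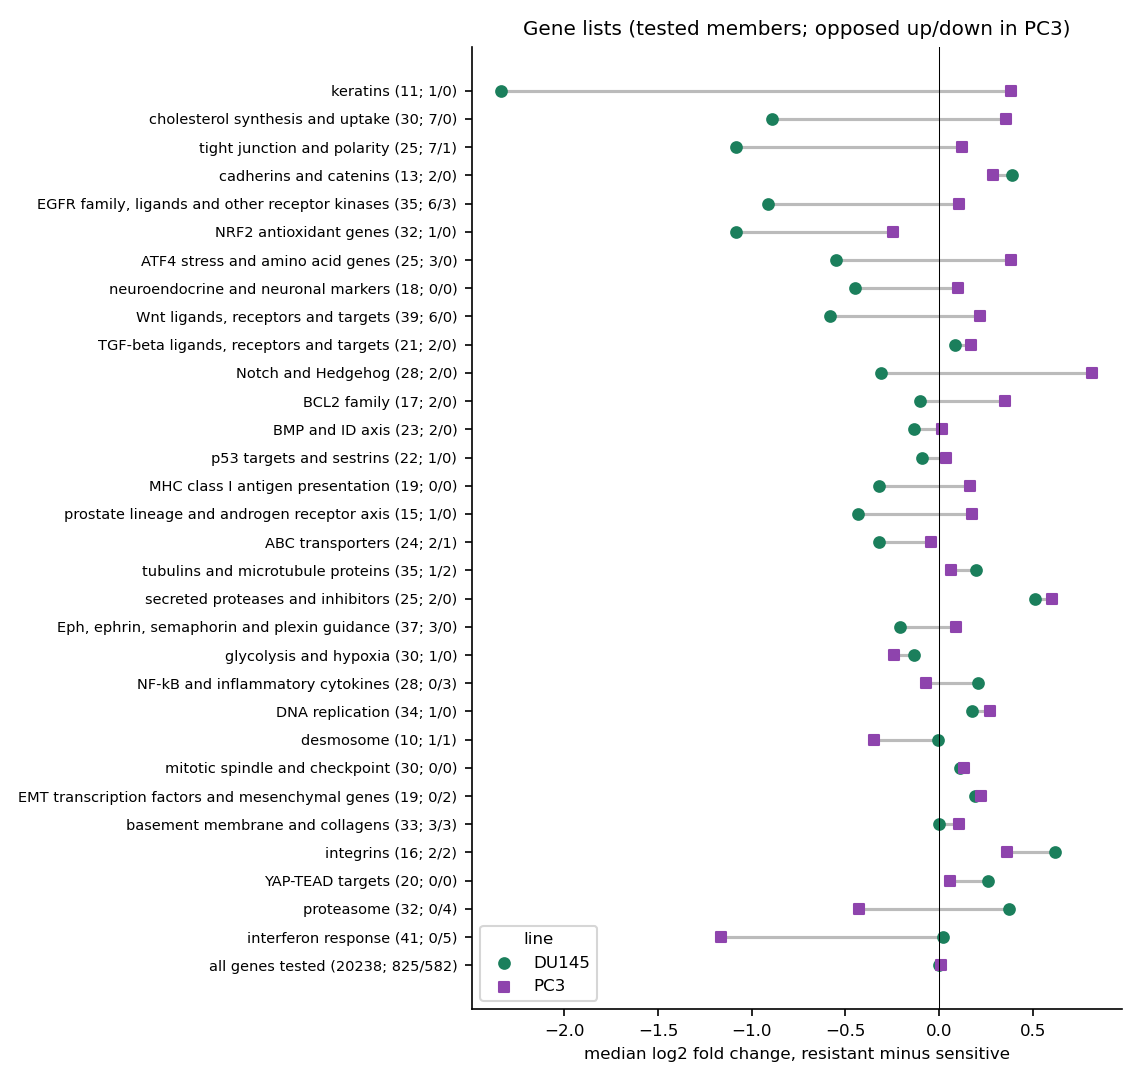
Median log2 fold change between resistant and sensitive libraries for each gene list in DU145 (green circles) and PC3 (purple squares), ordered by the list's median interaction, with the number of tested members and of opposed members up and down in PC3 in brackets. Keratins, cholesterol genes and the tight junction and polarity list lie left of 0 in DU145 and right of 0 in PC3. Interferon and proteasome genes lie lower in PC3 than in DU145, and all tested genes lie at 0 and 0.013.

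Whether the lines came closer was read from the gap between them, PC3 minus DU145, in sensitive and in resistant cells of the same fit. The gap passed the test for 11697 genes in sensitive libraries (57.8%) and 11482 in resistant libraries (56.7%). Over all tested genes the root mean square difference in log2 CPM between a PC3 and a DU145 library averaged 1.996 for the 4 sensitive pairs (1.985 to 2.003) and 1.992 for the 4 resistant pairs (1.963 to 2.030). The pairs share libraries and so carry no p-value. The ranges overlap, and resistance left the lines about as far apart as they were. Distances between group means are not on the same scale as those between single libraries. Across lines they were 1.961 for sensitive and 1.954 for resistant cells. The smallest was 1.873, for DU145 resistant and PC3 sensitive cells, and the largest was 1.994, for DU145 sensitive and PC3 resistant cells. Within a line the distance between sensitive and resistant cells was 1.035 in DU145 and 1.343 in PC3.

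The opposed genes divided almost evenly. The gap was smaller in resistant cells for 726 of them (51.6%) and larger for 681, while over all tested genes it was smaller for 51.7%. Swapping sensitive and resistant leaves the choice of opposed genes as it is, so that choice favours neither outcome. The share with a smaller gap was 52.4% in genes up in PC3 and 50.5% in genes down in PC3. The median absolute gap of opposed genes was 1.23 in sensitive and 1.24 in resistant cells. Their root mean square distance fell from 2.628 (2.618 to 2.637 over 4 pairs) to 2.432 (2.366 to 2.503). The mean was 3.032 against 2.755 in genes up in PC3, and genes down in PC3 had overlapping ranges of 1.879 to 1.949 and 1.810 to 1.955.

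In many opposed genes the gap changed its sign. In 550 of them (39.1%) the lines differed in both states with the order reversed, which was true of 2.90% of other genes. The resistant gap less the sensitive gap is the interaction by which opposed genes were chosen. Much of this contrast therefore follows from the choice, and it is a description only. A gap present in sensitive cells was closed or narrowed in 445, and a gap was opened or widened in resistant cells in 412. Of the 550 turned genes, 373 were higher in DU145 when sensitive and higher in PC3 when resistant, and 177 were the reverse. The size of the gap differed between states for 231 turned genes by the test of the summed gaps, with 124 smaller and 107 larger in resistant cells.

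CDH1 is an example of a turned gene, with a log2 gap of -4.58 in sensitive and 3.71 in resistant cells: CDH1 was higher in DU145 among sensitive cells and higher in PC3 among resistant cells. BMP7, at -5.57 and 5.93, and HSPB8, at -5.14 and 7.36, also traded places, as did TGFA in the other direction, at 2.93 and -2.31. Gaps closed in SREBF2, from -2.06 to 0.60, in BMI1, from 3.32 to 0.08, and in IGFBP3, from 3.87 to 0.00. VLDLR, from -7.52 to -1.89, and G0S2, an inhibitor of triglyceride lipase, from 6.65 to 1.83, narrowed without closing. The lines moved apart in TGM2, from 0.09 to 4.82, in CLDN4, from 2.57 to 6.41, and in HSPB1, the heat shock protein HSP27, from 1.08 to 4.44. PICALM, a clathrin assembly protein, widened from -2.14 to -8.32 as PC3 resistant cells fell to 1.68 and 1.69 CPM.

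The lists held few opposed genes each, and differences between lists in the outcome for the gap were not tested. Over all opposed genes 51.6% had a smaller gap. All 5 opposed interferon genes and all 3 opposed ATF4 genes had a smaller gap in resistant cells, as had 5 of 6 Wnt genes, 5 of 7 cholesterol genes and 3 of 4 proteasome genes. The 4 opposed integrins, the 3 opposed Eph, ephrin, semaphorin and plexin genes, ZEB2 and VIM all had a larger gap. Opposed genes of the tight junction and polarity list, regulators included, had 3 smaller and 5 larger. Over whole lists the median absolute gap fell from 2.21 to 1.13 in Wnt genes, from 1.87 to 1.31 in interferon genes, from 1.82 to 0.932 in NRF2 genes and from 1.25 to 0.785 in ATF4 genes. It rose from 0.962 to 1.91 in integrins and from 1.94 to 3.71 in cadherins and catenins. Over all tested genes it was 0.885 and 0.841.

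**Figure D4:**
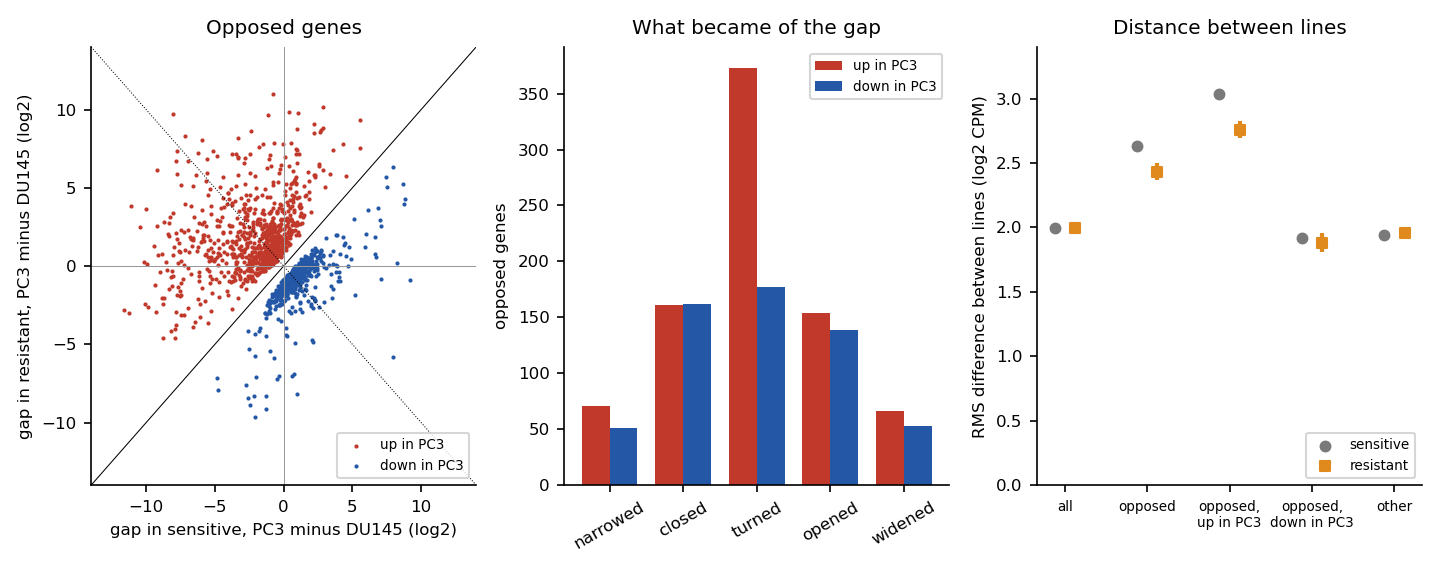
Left, the log2 gap between PC3 and DU145 in sensitive (x axis) and resistant cells (y axis) for each opposed gene, with equal gaps on the solid line and gaps of equal size and opposite sign on the dotted line. Middle, the number of opposed genes per class of gap, with 373 and 177 in the turned class. Right, the mean root mean square difference in log2 CPM over 4 library pairs with its lowest and highest pair, at 1.996 and 1.992 for all genes and 2.628 and 2.432 for opposed genes.

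Opposed genes were spread unevenly over the genome. Chromosome 7 held 136 of them, 13.8% of its 985 tested genes, with 121 up in PC3 and 15 down. Direction was also lopsided on chromosomes 8 (58 up and 4 down in PC3), 16 (55 and 2), 20 (38 and 3) and 22 (43 and 3), and reversed on X (12 and 42), 5 (28 and 50) and 12 (24 and 52). Neighbours moved together in places, and windows of 10 consecutive tested genes with at least 5 opposed in the same direction merged into 12 stretches, 7 of them on chromosome 7 and all of those up in PC3. The longest, chr7:75416786-81691406 (hg38), held 21 opposed genes of 41, HSPB1 among them, and chr7:73567537-74897835 held 12 of 24, CLDN4 among them. The stretch with OCLN, chr5:69217760-71067689, held 8 of 18, all down in PC3. DNA copy number was not measured, so its part in these stretches was not tested. Without chromosome 7 there were 1271 opposed genes, 704 of them up in PC3, and 52.5% had a smaller gap in resistant cells.

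**Figure D5:**
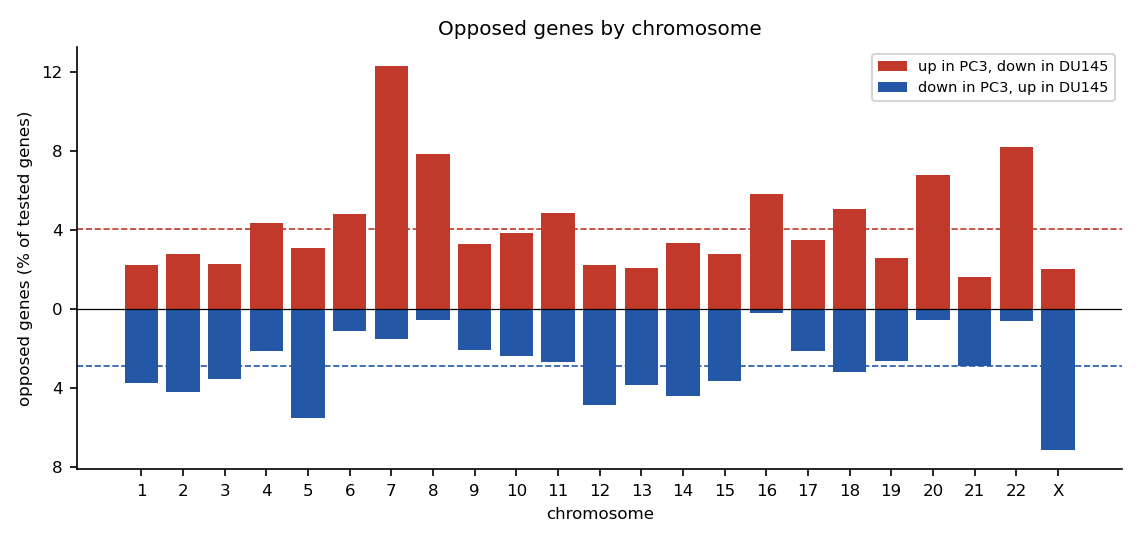
Opposed genes as a percentage of tested genes on each chromosome, with genes up in PC3 and down in DU145 above the axis and the reverse below it, and dashed lines at 4.08% and 2.88%, the shares over all tested genes. Chromosome 7 stands out above the axis at 12.3% and X below it at 7.12%.

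Some large interactions came from 1 line. SDHAF3, an assembly factor of succinate dehydrogenase, fell in PC3 from 35.7 and 36.5 to 0.0673 and 0.101 CPM and stood at 29.4 and 27.2 in DU145 sensitive and 26.9 and 26 in DU145 resistant libraries. LPAR3, a receptor for lysophosphatidic acid, likewise fell from 47.2 and 36.0 to 0.157 and 0.202 CPM in PC3 and stood at 19 to 20.9 CPM in all DU145 libraries. ZIC2, a zinc finger transcription factor, rose in PC3 from 0.122 and 0.0973 to 16.4 and 9.07 CPM, against 9.11 to 10.5 CPM over the DU145 libraries. In DU145, CDK6, a cyclin-dependent kinase of the G1 phase, rose from 11.8 and 14.7 to 280 and 265 CPM, and MAP2K6, a kinase that activates p38, fell from 10.6 and 10.3 to 0.303 and 0.5 CPM, while in PC3 CDK6 stood at 85.7 to 104 CPM and MAP2K6 at 24.4 to 28.4 CPM. The adjusted p in the other line was above 0.5 for each of these genes, which does not show that they were unchanged there.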

How the data were processed

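Each library has a deposited table of raw counts by gene. The submitters' processing notes name Bowtie and the hg38 build. The counter, annotation and strand setting were not given in the sources used here. Reads of overlapping genes on opposite strands may be shared. Depth was 31685148 to 43045127 counts, and no molecular identifiers are described, so counting intervals cover counting error only. All 8 libraries were fitted together with edgeR 4.0.16 in R 4.3.3, with 1 mean per group, TMM scaling and the filterByExpr filter, which left 20238 of 60554 gene rows. The quasi-likelihood test was used with Benjamini-Hochberg adjustment over all tested genes and a threshold of 0.05. Standard errors were taken as the size of the log2 change over the root of its F statistic. CPM values use TMM-scaled library sizes, except for marker sums. A gene was called opposed when the interaction and both within-line changes passed with opposite signs.

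A gap was closed or opened when it passed in sensitive or in resistant cells alone, narrowed or widened when it passed in both with the same sign, and turned when it passed in both with opposite signs. Distances use log2 CPM with a prior count of 2. Gene coordinates are from GENCODE 44 (19962 tested genes matched by identifier) and promoters from RefSeq. The genes, the 33 lists (856 entries, 56 not tested) and the rules were chosen with earlier results of these data known. Named genes are the 12 largest interactions per direction among 915 opposed genes with at least 8 CPM in the higher group of each line, further genes per gap class, up to 4 genes per list, and the largest changes of 1 line. The text names fewer than the rules allow, some items are not reported here, and CLDN4 and OCLN were taken by gap class. The fit was tested on simulated data. Alternatives were RLE scaling, DESeq2 1.42.0, other filters and thresholds, a replicate block, subtraction of 0.5% of mean CPM from each count, and leaving out each library. The study's single cell data were not analysed here.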

Additional observations from a re-analysis of the deposited data

Results flagged for a closer look

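The difference between the lines in their response to resistance was tested directly, as the interaction of line and state, and it passed for 3743 genes with the higher change in PC3 and 3208 with the lower change, of which 825 and 582 were opposed. The values are log2 interactions, PC3 change minus DU145 change, from edgeR's quasi-likelihood test over 8 libraries. With groups of 2 libraries, no library was tested as an outlier.

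Among named genes the interaction was above 0 as follows: KCNQ3 14.01, HSPB8 12.49, H19 12.38, BMP7 11.50, SERPINA1 10.79, RNF43 10.54, ALX4 9.93, SLC2A3 9.84, ESRP1 9.44, SESN3 9.17, SLPI 9.11, WNT11 8.78, CDH3 8.66, LAMA1 8.47, CDH1 8.29, DSP 8.28, OVOL2 7.84, IGFBP2 7.78, NKD1 7.36, PDZD4 7.11, ZIC2 6.80, KRT8 6.41, COL4A4 6.36, CLDN7 6.28, GLI3 6.27, FGFR3 5.93, VLDLR 5.63, ITGB8 5.57, TJP3 5.01, MAP2K6 4.8, TGM2 4.73, AXIN2 4.68, BACE2 4.64, NOTCH3 4.32, MAP2 4.30, BIK 4.15, SCD 3.99, CLDN4 3.84, HSPB1 3.36, ABCA1 3.34, KRT18 2.94, SREBF2 2.65, FADS2 2.59, TGFBR2 2.41, LTBP4 1.85, ABCA3 1.78, SLC7A5 1.69, ATF4 1.44 and ME1 1.02. All of these passed an adjusted p of 0.05.

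It was below 0 as follows: NID1 -9.17, SDHAF3 -8.60, GSPT2 -7.99, LPAR3 -7.88, ZNF215 -7.61, EED -7.02, MYL9 -6.65, PICALM -6.18, TGFA -5.23, DSC3 -5.22, G0S2 -4.82, TGFB1I1 -4.68, MARCH4 -4.66, SNX19 -4.43, ABCB1 -4.43, CDK6 -4.42, THBS1 -4.27, ZEB2 -3.91, IGFBP3 -3.86, FGF2 -3.70, BMI1 -3.24, ISG15 -3.05, IFIH1 -2.84, TUBA4A -2.54, IFI44 -2.14, OCLN -2.11, DDX58 -1.91, RELB -1.77, NFKB2 -1.65, PSMC3 -1.64, PSMC6 -1.50, ITGA3 -1.48, VIM -1.46, PSMD11 -1.26, CLIP1 -1.24, ABCC4 -1.03 and PSMD14 -1.02. These passed as well. ABCB1 rose in both lines, and its value reflects the larger rise in DU145. KRT8, KRT18 and the genes named for a change in 1 line, SDHAF3, LPAR3, PDZD4, ZIC2, MAP2K6, BACE2 and CDK6, were called in the interaction without being opposed.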

How the results depend on the processing

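Scaling, test and filter moved the counts little. RLE scaling, DESeq2, testing without a filter, requiring 1 CPM in 4 libraries and subtraction of reads that could be shared between libraries gave 1359 to 1548 opposed genes, with 86.3% to 98.5% of the 1407 among them. An adjusted p under 0.01 left 2339 interaction calls higher and 1734 lower in PC3, 353 opposed genes up and 172 down in PC3, 264 with a smaller and 261 with a larger gap, and 217 turned. A 2-fold limit left 2005 calls lower in PC3, 463 opposed genes up and 105 down, 303 with a smaller and 265 with a larger gap, and 243 turned. The share of opposed genes with a smaller gap was 49.9% to 54% over all these fits, left-out libraries included.

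With 1 library left out, interaction calls were 2859 to 3610 higher and 2175 to 3212 lower in PC3, opposed genes 535 to 734 up and 262 to 568 down, 417 to 659 with a smaller and 374 to 643 with a larger gap, and 329 to 533 turned, where the lone library is assumed to vary like the other groups. Gap calls were 9450 to 12100 in sensitive and 9632 to 11668 in resistant libraries. Counts moved by over 1.5 times without PC3 sensitive replicate 1 (808 opposed), PC3 sensitive replicate 2 (799), DU145 sensitive replicate 2 (889), PC3 resistant replicate 2 (934) and DU145 resistant replicate 1 (942).

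The distance between lines changed by -0.00377 over all genes (-0.0334 to 0.0255 with a library left out, -0.0685 with the 1 CPM filter) and by -0.197 over opposed genes (-0.241 to -0.141). The latter was -0.269 with a prior count of 0.5, -0.122 with 10, -0.277 with the 1 CPM filter and -0.00997 as a median absolute difference. The cause of these shifts was not tested.

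Samples with the same replicate number had correlated deviations of 0.0612 to 0.323, above 0.1 in 2 of 6 pairs of groups. The highest was for DU145 sensitive and DU145 resistant libraries. Whether the numbers pair the samples is not labelled, and these values do not decide it. With replicate number as a block, 4309 interaction calls were higher and 3961 lower in PC3, and opposed genes were 1100 up and 907 down in PC3, with 1406 of the 1407 among them. All 86 named interactions kept their sign and passed in every fit that tested them, 2 genes being untested with the 1 CPM filter. Low counts limit KCNQ3, SERPINA1 and WNT11.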

Other observations

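EED and PICALM lie next to each other on 11q, and their neighbours were looked at after their values had been seen. In order of start, the 7 tested genes from PICALM to PRSS23 (chr11:85957175-86952910, hg38, the outer bounds of the genes) were lower in the PC3 resistant than in the PC3 sensitive libraries. Within the span of PRSS23 lie 3 further tested transcripts of low level that did not fall by the test, of which RP11-736K20.4 rose in PC3 by 1.94 on the log2 scale (adjusted p = 0.0113, edgeR) and RP11-736K20.5 and AP000654.4 did not pass. PRSS23, a secreted serine protease, fell in PC3 from 79.4 and 60.3 to 1.30 and 1.29 CPM, and ME3, a mitochondrial malic enzyme, fell from 3.93 and 3.63 to 0.0224 and 0.0758 CPM. C11orf73 fell from 9.23 and 8.43 to 0.112 and 0.228 CPM. These 3 genes did not pass the test in DU145 (adjusted p of 0.646, 0.22 and 0.579, edgeR), and so are interaction calls without being opposed. CCDC81 and the clone gene RP11-762L8.6, both near 0 in PC3 sensitive cells, did not pass in PC3, with adjusted p-values of 0.0713 and 0.107. Neighbours on either side did not fall in PC3 beyond the test: SYTL2 stood at 28.1 and 28.4 CPM in sensitive and 94.7 and 101 CPM in resistant libraries, and FZD4, whose annotated span overlaps that of PRSS23, at 92.3 and 65.3 against 63.8 and 65.6 CPM. DNA copy number was not measured.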
